A study of Mus musculus with 9 samples.

Results

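The genes of antigen presentation by the major histocompatibility complex (MHC) were followed in the small intestine of control and Gata4 mutant mice. Members are the probe sets annotated to exactly 1 symbol that starts with H2- or is B2m, Cd74, Ciita, Nlrc5, Tap1, Tap2, Tapbp, Psmb8, Psmb9, Psmb10, Psme1, Psme2, Erap1, Pdia3, Calr or Cd1d1. The rule uses gene symbols alone. The rule found 74 probe sets of 38 genes among 45037 probe sets on the array, of which 69 were bright enough to be tested among 29307. The members comprised 26 probe sets of 13 class I heavy chain genes, 24 of 13 partner genes of class I, 23 of 11 class II genes, and 1 of H2-Ke6, a gene of the MHC region with another role. Psme2 has no probe set of its own here, and 15 further H2- probe sets that carry several symbols are not members.

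Each group had 3 adult male mice aged 6 to 8 weeks, with 1 Affymetrix array per mouse. Control jejunum and control ileum came from independent Gata4loxP/+VilCre mice, which have a wild-type copy of Gata4 beside a copy flanked by loxP sites. The Gata4 product is a GATA-binding transcription factor made in the upper intestine. Mutant jejunum came from Gata4loxP/-VilCre mice, in which the other copy is a null allele. VilCre is Cre recombinase under the villin promoter, active in the gut epithelium, and every mouse carried it together with a loxP-flanked copy, so controls are not Cre-free. Jejunum was sampled at 10 cm past the pylorus, and ileum at 1 cm ahead of the cecum. Mouse strain and sampled wall layers are details not given in the sources used.

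MHC class I molecules consist of a heavy chain and beta-2-microglobulin, and display peptides from inside the cell to CD8 T cells. The immunoproteasome cuts the peptides, the TAP transporter carries them into the endoplasmic reticulum, and tapasin, calreticulin and Pdia3 help to load them. Classical heavy chains (H2-K, H2-D) are made by nearly all cells, whereas nonclassical ones (H2-Q, H2-T, H2-M) are often restricted to a tissue; H2-T3 encodes the thymus leukemia antigen, known from the mouse intestinal epithelium as a ligand of CD8 alpha-alpha on intraepithelial lymphocytes. Class II molecules pair an alpha and a beta chain, are held by the invariant chain Cd74 until H2-DM exchanges its remnant for a peptide, and are switched on by Ciita in B cells, macrophages and dendritic cells, and in epithelium exposed to interferon gamma.

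Levels are quantile-normalized log2(intensity + 16), where 4 stands for no signal, and arrays are listed in the order of replicates 1, 2 and 3. Tests are from 1 limma fit of all probe sets, with Benjamini-Hochberg adjustment over the whole table, and a change is called at an adjusted p under 0.05. Trimmed mean intensity ran from 150 to 172 on control jejunum, 147 to 180 on mutant jejunum and 96.8 to 122 on control ileum arrays. Brightness and segment cannot be told apart, and scaling shifts the ileum comparisons: without it the median of all tested probe sets moved to -0.40 between ileum and jejunum. Of the probe sets called between ileum and jejunum, 51.5% were higher in ileum with quantile normalization, 36.7% with arrays centred on their medians and 5.82% with no scaling. Of those called between mutant jejunum and ileum, 52.2%, 79.1% and 98.3% were higher in the mutant in the same order, and of those called between the jejunal groups 48.9% and 62% with quantile normalization and median centring. The array of mutant jejunum 3 had the lowest weight (0.384) of the 9. Gata4 stood at 7.30 to 9.57 in control jejunum, 7.91 to 9.61 in mutant jejunum and 4.26 to 5.64 in control ileum over 2 probe sets. Where these lie relative to the deletion is not known here, so they do not check the genotype. Precision is limited by having 3 arrays in a group. Arrays in bulk tissue cannot tell apart fewer cells of a type and less RNA per cell.

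The class I heavy chains called in the mutant jejunum, H2-T3, H2-T18 and H2-Bl, were all lower there. The other nonclassical genes were not called, and their differences went in both directions. Of 24 tested heavy-chain probe sets 0 rose and 4 fell, representing H2-T3, H2-T18 and H2-Bl, against 1.74% of all tested probe sets that rose, 1.82% that fell and 3.56% called in all. The median log2 difference of the 24 was -0.38, beside 0.00 over all tested probe sets. Over the whole class I pathway, partners included, 0 of 46 rose and 4 fell. That count was 0 with no scaling and 1 with arrays centred on their medians. It was 0 without control jejunum 2 or without control jejunum 3, 1 without mutant jejunum 2, and 2 without mutant jejunum 3, control ileum 1 or control ileum 2. In 9 of the 24 all mutant arrays lay below all control arrays, and in 1 they lay above (background 11.0% and 11.4%). The 9 include H2-Q2 and an H2-K1 probe set whose signals differed between single arrays, as given below. These also enter the median.

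H2-T3 stood at 10.59, 11.02 and 11.01 in control jejunum, 10.07, 9.90 and 9.67 in mutant jejunum, and 9.53, 10.09 and 9.74 in control ileum. All mutant arrays were below all control jejunum arrays, and they overlapped with the ileum arrays. It fell by 0.99 on the log2 scale in the mutant (SE 0.17, 95% interval -1.37 to -0.61, limma adjusted p = 0.0109), a 1.99-fold difference. The second H2-T3 probe set, an _x_at set in which some probes match other sequences too, read 9.76, 10.09 and 10.17 in control jejunum, 8.82 to 9.31 in the mutant and 8.65, 9.20 and 8.81 in ileum. This set fell by 0.96 (limma adjusted p = 0.0157), so both probe sets gave nearly the same size. The first probe set of H2-T3 missed the threshold without control jejunum 2 (adjusted p = 0.0582) or 3 (0.06), and the second without control jejunum 2 (0.0738), control jejunum 3 (0.0799) or mutant jejunum 2 (0.0676), while differences stayed between -1.13 and -0.85. With no scaling neither was called (adjusted p = 0.0642 and 0.0761), and with arrays centred on their medians the second was not (0.0572).

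H2-T18, a close relative of H2-T3 in the T region, stood at 9.34, 9.37 and 9.16 in control jejunum, 8.86, 8.81 and 8.58 in mutant jejunum, and 8.70, 8.79 and 8.54 in control ileum. The jejunal groups did not overlap, and the fall was 0.54 (SE 0.13, limma adjusted p = 0.0461). H2-Bl, a class I gene named after a blastocyst transcript, stood at 12.38, 12.31 and 12.52 in control jejunum, 11.75, 11.45 and 10.76 in mutant jejunum, and 10.68, 10.87 and 9.99 in control ileum. It fell by 1.08 (SE 0.26, limma adjusted p = 0.0433), a 2.12-fold difference. Both calls lie near the threshold: leaving out 1 array at a time kept the H2-T18 call in 1 of 9 fits (adjusted p from 0.049 to 0.173) and the H2-Bl call in 2 of 9 (0.023 to 0.157). The single probe set of H2-T18 is an _x_at set, as are 13 of the 26 heavy-chain probe sets, so near-identical heavy chains can share its signal.

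**Figure D1:**
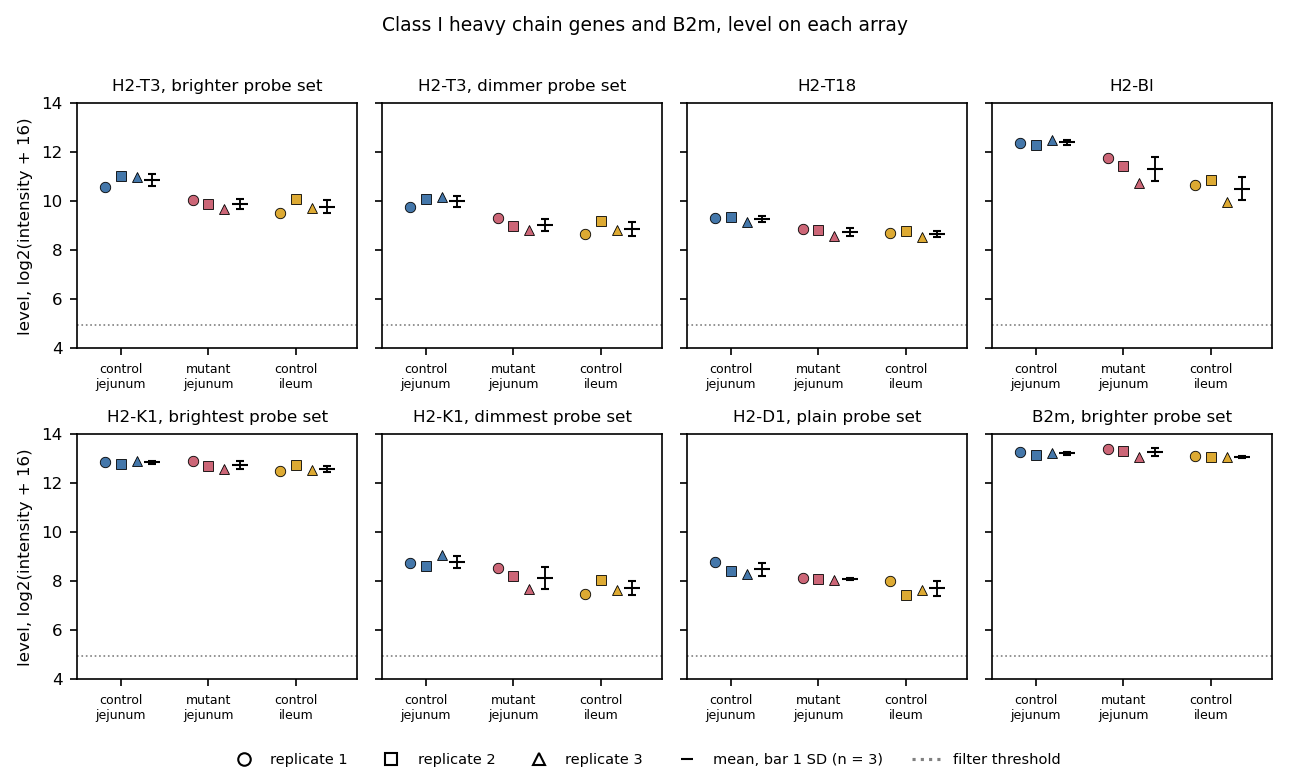
Normalized log2 levels on each of the 9 arrays, by group, of class I heavy chains (H2-T3, H2-T18, H2-Bl, H2-K1 and the H2-D1 probe set with no shared-sequence suffix) and B2m. Points are mice, the bar beside each group is the mean ± 1 SD (n = 3), and the dotted line is the filter threshold, 4.95. The mutant points of H2-T3, between 9.67 and 10.07, lie below the control jejunum points and among the ileum points.

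The falls in the mutant had counterparts between the control segments. Ileum and jejunum differed at 16.2% of all tested probe sets, with 7.86% lower and 8.36% higher in ileum. Of the 24 heavy-chain probe sets 7 were lower and 0 higher, with a median difference of -0.35. In 9 of them all ileum arrays lay below all jejunum arrays and in 0 above (background 17.7% and 19.7%, 37.4% in all), and 10 had an unadjusted p under 0.05 (background 30.9%). Over the class I pathway 1 of 46 rose and 8 fell, and with no scaling 26 of 46 fell and 0 rose. That setting called 10013 of all 29621 tested probe sets lower and 619 higher in ileum. H2-T3 fell by 1.09 on the log2 scale in ileum (limma adjusted p = 0.00184) and by 1.12 on its second probe set (0.002). H2-T18 fell by 0.61 (0.00843) and H2-Bl fell by 1.89 (6.77e-04), a 3.7-fold difference. These 4 calls held in every fit that left out 1 array. The mutant and ileum contrasts share the control jejunum arrays, so their sizes are side by side and are not independent.

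Set directly against ileum, mutant jejunum showed 0 calls among the 69 tested members, where 2.65% of all tested probe sets were called, 1.39% higher and 1.27% lower. An unadjusted p under 0.05 in limma was reached by 15 members (background 16.3%), and in 10 the arrays of both groups did not overlap (7 higher and 3 lower, background 9.90% and 10.7%, 20.6% in all). With no scaling 24 class I and 12 class II probe sets were higher in the mutant, against a shifted median of 0.41 over all probe sets. That setting called 8349 of all 29621 tested probe sets higher in the mutant and 148 lower. The H2-T3 difference between mutant jejunum and ileum was 0.10 (95% interval -0.28 to 0.48, limma adjusted p = 0.839). For H2-Bl the mutant lay above ileum by 0.81 (interval 0.24 to 1.37, limma adjusted p = 0.134), and without mutant jejunum 3 that was 1.09 (adjusted p = 0.0295).

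The classical heavy chains were measured by many probe sets that did not move alike. H2-K1 on its brightest probe set stood at 12.87, 12.80 and 12.90 in control jejunum, 12.91, 12.73 and 12.58 in mutant jejunum, and 12.51, 12.75 and 12.53 in ileum. The mutant difference was -0.12 (95% interval -0.34 to 0.11, limma adjusted p = 0.62), and arrays overlapped. The dimmest H2-K1 probe set read 8.73, 8.61 and 9.08, then 8.54, 8.20 and 7.68, then 7.50, 8.04 and 7.65 in the same order of groups. It fell by 1.08 in ileum (limma adjusted p = 0.00857) and gave -0.66 in the mutant, which was not called (0.155). Another H2-K1 probe set fell by 0.87 in ileum (limma adjusted p = 0.0362), a call kept in 4 of 9 fits without 1 array (adjusted p up to 0.119). The 4 H2-K1 probe sets together had a median of -0.49 in the mutant and -0.61 in ileum, with 0 and 2 of 4 called. Among them was a probe set whose signal differed between single arrays, as given below.

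H2-D1 had 8 tested probe sets, with mutant differences from -0.90 to 0.34 and 0 of 8 called in the mutant, although 1 reached an unadjusted p under 0.05 in limma. On its brightest probe set, H2-D1 stood at 12.12, 12.68 and 12.79 in control jejunum, 12.16, 12.07 and 11.97 in mutant jejunum, and 12.62, 12.18 and 11.34 in ileum. These groups overlapped in both comparisons (mutant difference -0.46, limma adjusted p = 0.425). This probe set was highest on control jejunum 2, control jejunum 3 and control ileum 1, a pattern taken up below. One probe set with no shared-sequence suffix read 8.79, 8.41 and 8.29, then 8.12, 8.09 and 8.07, then 8.03, 7.45 and 7.66. It fell by 0.79 in ileum (limma adjusted p = 0.0114) and gave -0.40 in the mutant (0.269).

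H2-M3, which presents formylated peptides, had a mean level of 7.01 ± 0.15 in control jejunum, against 7.27 ± 0.13 for mutant jejunum and 6.65 ± 0.24 for ileum (SD, n = 3). Mutant arrays lay above all ileum arrays of H2-M3, by 0.62 (limma adjusted p = 0.0683), and this was called with median-centred arrays (0.75, 0.0333), array weights (0.57, 0.0413) and no scaling (1.06, 0.00432). Ileum arrays lay below all control jejunum arrays (-0.36, limma adjusted p = 0.153), called with no scaling (-0.79, 0.00952). H2-D4, H2-M10.1, H2-T24 and both H2-Q5 probe sets had group means between 4.59 and 5.60, with no call. The brighter H2-Q5 probe set gave 1.02 in the mutant (95% interval 0.10 to 1.94, limma adjusted p = 0.246). It is the heavy-chain probe set counted earlier as higher on all mutant arrays. The other H2-Q5 probe set gave 0.21 (limma adjusted p = 0.677). The 5 members too dim to test were H2-M9, 1 probe set of H2-D1, 1 of H2-Ea and 2 of Tap1.

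Some heavy-chain signals differed between single arrays more than between groups. H2-Q2, a nonclassical gene, stood at 6.71, 11.44 and 11.66 in control jejunum, 6.52, 6.48 and 5.97 in mutant jejunum, and 9.68, 6.14 and 5.86 in ileum. In deposited intensities these were 101, 2730 and 3916, then 87, 84 and 49, then 536, 47 and 35. Only control jejunum 2 and 3 and control ileum 1 were bright. The mutant difference of -3.61 had an SE of 1.23 and was not called (limma adjusted p = 0.156); without control jejunum 1 it was -5.22 and called (0.0148). An H2-D1 _x_at probe set followed the same 3 arrays, at 11.46, 12.55 and 12.56 in control jejunum, 11.54, 11.08 and 11.26 in mutant jejunum, and 12.61, 11.49 and 10.74 in ileum. The brightest H2-D1 probe set, given above, was also highest on these 3 arrays. So was an H2-K1 _x_at probe set, at 11.74, 12.24 and 12.36, then 11.68, 11.39 and 11.38, then 12.24, 11.96 and 11.11. Another H2-D1 _x_at probe set was lowest on those 3 arrays, at 11.95, 11.34 and 11.56, then 12.09, 11.90 and 11.88, then 11.18, 12.03 and 11.60. H2-Q10, a secreted class I chain, stood at 6.43, 6.34 and 7.42 in control jejunum, 5.75, 6.29 and 5.96 in mutant jejunum, and 7.21, 7.72 and 6.63 in ileum. Its mutant arrays lay below all ileum arrays (-1.19, limma adjusted p = 0.0818), called with array weights (-1.26, 0.0467) and without control jejunum 3 (-1.19, 0.0492). MHC genes are among the most variable between inbred strains, and the part of mouse background in these values was not tested.

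**Figure D2:**
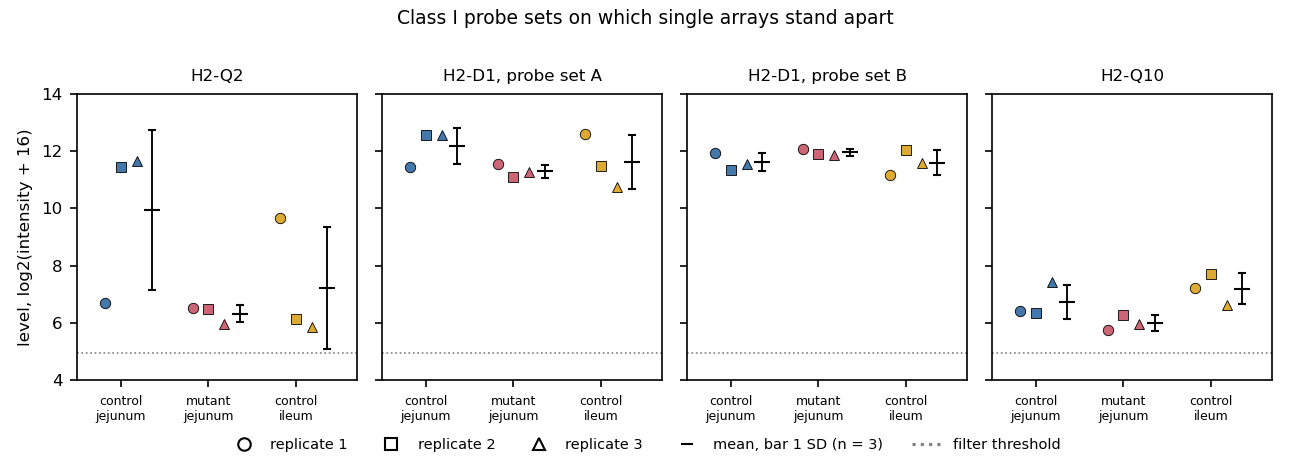
Normalized log2 levels on each array, by group, of H2-Q2, H2-Q10 and H2-D1. Of H2-D1, a probe set highest (A) and another lowest (B) on control jejunum 2 and 3 and control ileum 1 are shown. Points are mice, the bar beside each group is the mean ± 1 SD (n = 3), and the dotted line is the filter threshold, 4.95. H2-Q2 is bright on those 3 arrays alone.

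Partners of class I showed no call in the mutant. Of 22 tested probe sets 0 rose and 0 fell in limma (background 3.56% called), and the median difference was -0.00. An unadjusted limma p under 0.05 was reached by 1 (background 16.9%). B2m, the light chain of every class I molecule, stood at 13.29, 13.15 and 13.24 in control jejunum, 13.40, 13.32 and 13.09 in mutant jejunum, and 13.11, 13.06 and 13.06 in ileum. Its mutant difference was 0.04 (95% interval -0.15 to 0.24, limma adjusted p = 0.86), a narrow interval around 0.

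Of peptide supply, Psmb8, Psmb9 and Tap1 overlapped between the jejunal groups, while Tap2 and the brighter Tapbp probe set were lower on all mutant arrays, uncalled (-0.35 and -0.17, limma adjusted p = 0.296 and 0.507). Psmb8, a catalytic subunit of the immunoproteasome, stood at 10.91, 10.53 and 10.52 in control jejunum, 10.42, 10.45 and 10.54 in mutant jejunum, and 9.40, 10.58 and 10.54 in ileum. Psmb9, its neighbour subunit, stood at 10.15, 9.91 and 9.92, then 9.73, 10.06 and 10.17, then 9.13, 10.10 and 10.08. Control ileum 1 was the lowest of all 9 arrays for both. Tap1, a subunit of the peptide transporter, stood at 8.35, 7.92 and 7.96 in control jejunum, 7.89, 8.12 and 8.75 in mutant jejunum, and 6.50, 7.77 and 7.49 in ileum (mutant difference 0.18, limma adjusted p = 0.834). Psmb10, Psme1, Erap1, Tapbp and Cd1d1, which are another immunoproteasome subunit, a proteasome activator, a peptide trimmer, tapasin and a lipid-presenting molecule, gave mutant differences from -0.27 to 0.14 over 8 probe sets, with no call. Nlrc5, the transactivator of class I genes, gave 0.77 in the mutant with groups that did not overlap, uncalled (limma adjusted p = 0.33).

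Between the control segments 1 of the 22 partner probe sets rose and 1 fell (background 8.36% and 7.86%, 16.2% in all). Pdia3, a disulphide isomerase of the peptide-loading complex, stood at 11.04, 11.11 and 11.08 in control jejunum, 11.23, 11.34 and 11.39 in mutant jejunum, and 11.51, 11.64 and 11.54 in ileum. No groups overlapped, and it rose by 0.49 in ileum (SE 0.09, limma adjusted p = 0.00417). The mutant difference was 0.24 and was not called (0.192). A second, dim Pdia3 probe set gave 0.09 in ileum and was not called. The ileal rise of Pdia3 depended on scaling: it was 0.30 and uncalled (adjusted p = 0.132) with arrays centred on their medians, and turned to -0.06 with no scaling. Calr, the chaperone calreticulin, gave 0.30 to 0.33 in ileum on 3 probe sets without overlap, none called (limma adjusted p from 0.06 to 0.113). The brightest Calr probe set was called with the replicate block (0.0411), trimmed mean scaling (0.0274), array weights (0.0201), the stricter filter on dim probe sets (0.0455), the fit of both control groups alone (0.03), and without mutant jejunum 1 (0.0366) or mutant jejunum 3 (0.0279). Array weights also called the other Calr probe sets (0.0335 and 0.0246), and leaving out control ileum 1 called one of these (0.037). Tap2, the other transporter subunit, stood at 8.76, 8.62 and 8.64 in control jejunum, 8.43, 8.33 and 8.21 in mutant jejunum, and 7.78, 8.38 and 8.26 in ileum. It fell by 0.54 in ileum (limma adjusted p = 0.0427), a call kept in 2 of 9 fits without 1 array (adjusted p from 0.0365 to 0.12) and lost with the replicate block (0.0618).

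Class II genes read higher on the mutant arrays but none was called. Of 22 tested probe sets 0 rose and 0 fell in limma, against 3.56% of all probe sets; 7 had an unadjusted p under 0.05 (background 16.9%), and 15 differences were positive and 7 negative. The median difference was 0.54, beside 0.00 over all probe sets. In 7 of 22 all mutant arrays lay above all control jejunum arrays and in 1 below (background 11.4% and 11.0%). Several of the 7 are probe sets of H2-Aa. With 1 probe set per gene, 4 of 11 genes lay above and 1 below.

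Cd74, the invariant chain, stood at 11.97, 11.79 and 12.05 in control jejunum, 12.83, 12.48 and 12.53 in mutant jejunum, and 11.09, 12.60 and 12.49 in ileum. Its jejunal groups did not overlap (difference 0.67, SE 0.31, 95% interval -0.01 to 1.36, limma adjusted p = 0.306). H2-Eb1, the beta chain of H2-E, stood at 11.16, 9.52 and 9.87 in control jejunum, 11.89, 11.36 and 11.72 in mutant jejunum, and 8.65, 11.39 and 11.04 in ileum (mutant difference 1.47, 95% interval 0.12 to 2.82, limma adjusted p = 0.252). On both genes control ileum 1 lay below all other arrays.

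H2-Aa, the alpha chain of H2-A, stood at 11.36, 10.45 and 11.24 in control jejunum, 12.40, 11.82 and 11.83 in mutant jejunum, and 10.20, 11.92 and 11.45 in ileum. The mutant difference was 1.00 (95% interval 0.17 to 1.84, limma adjusted p = 0.206), and its 4 probe sets gave 0.57 to 1.27. H2-Ab1, the matching beta chain, stood at 10.64, 10.39 and 11.02, then 11.71, 10.99 and 11.02, then 9.44, 11.05 and 10.60. Here the jejunal groups overlapped (0.55, limma adjusted p = 0.471). H2-DMa, a chain of the peptide exchanger, stood at 8.38, 8.12 and 8.78 in control jejunum, 9.37, 9.19 and 9.13 in mutant jejunum, and 7.82, 9.06 and 8.74 in ileum (mutant difference 0.80, limma adjusted p = 0.161). Ciita, the class II transactivator, was dim at 5.72, 5.06 and 5.99, then 6.54, 6.12 and 5.99, then 5.28, 5.70 and 6.04, and gave 0.62 (limma adjusted p = 0.269).

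The mean of H2-Aa, H2-Ab1, H2-Eb1, H2-DMa and Cd74 per array was 10.70, 10.06 and 10.59 in control jejunum, 11.64, 11.17 and 11.24 in mutant jejunum, and 9.44, 11.20 and 10.86 in ileum. For these genes mutant arrays were above control jejunum arrays, and control ileum 1 was the lowest of the 9. Control ileum 2 lay among the mutant arrays and control ileum 3 between the jejunal groups. H2-Ea, described below, is not in this mean. Its brighter probe set stood at 4.72 on mutant jejunum 3, below all control jejunum arrays, so this order does not extend to every bright class II gene. Since all groups share 1 estimate of the spread, control ileum 1 bears on the mutant test as well. Without that array 4 class II probe sets rose in the mutant, namely Cd74 (0.67, adjusted p = 0.0113), H2-Aa (1.27, 0.0309), H2-DMa (0.80, 0.0384) and H2-Eb1 (1.47, 0.0494). In the fit of the jejunal groups alone 2 rose, Cd74 (adjusted p = 0.0229) and H2-Aa (0.0392). Both H2-Aa calls are of another probe set, and the brightest one, given above, was called in 0 of 9 fits without 1 array (lowest adjusted p = 0.0577). All of these are limma p-values adjusted over the whole table.

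**Figure D3:**
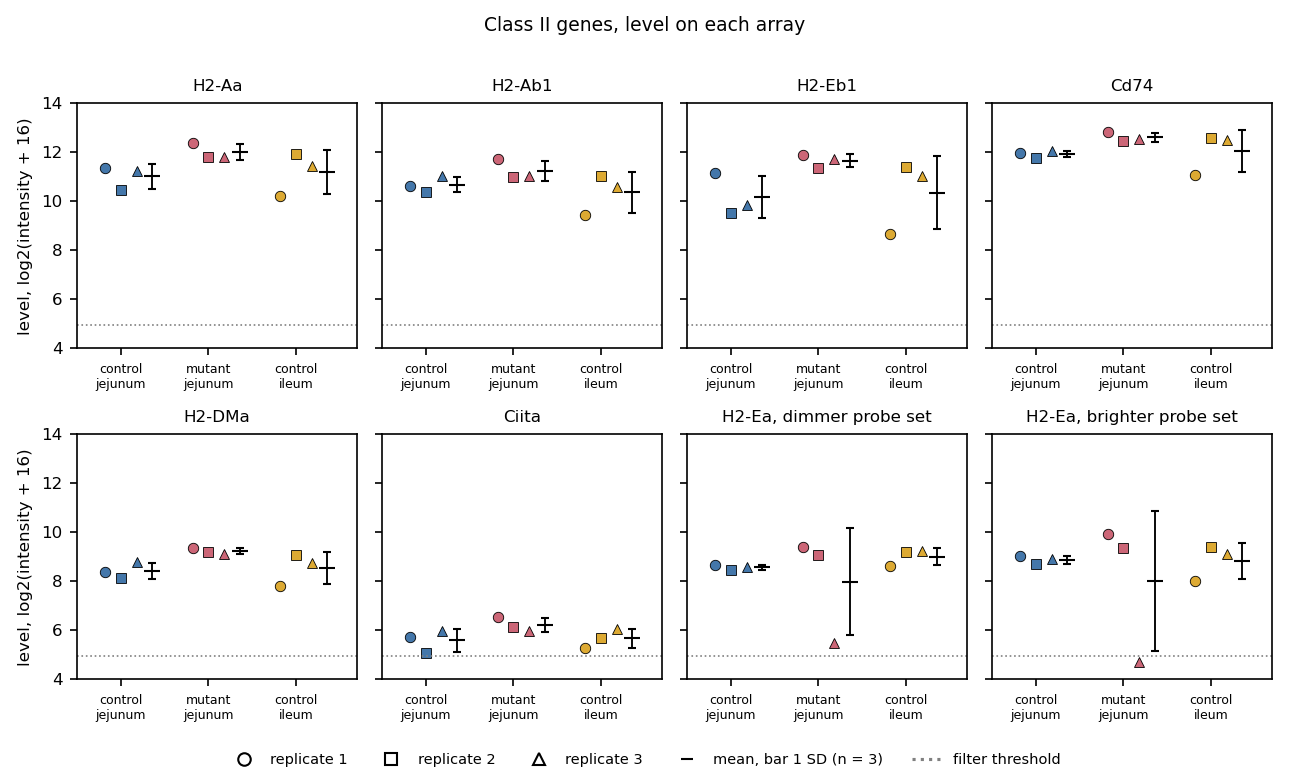
Normalized log2 levels of class II genes on each of the 9 arrays, by group. Points are mice, the bar beside each group is the mean ± 1 SD (n = 3), and the dotted line is the filter threshold, 4.95. Mutant jejunum points of Cd74, between 12.48 and 12.83, lie above the control jejunum points, control ileum 1 is its lowest point at 11.09, and both H2-Ea probe sets are low on mutant jejunum 3.

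Between ileum and jejunum 0 of 22 class II probe sets rose and 1 fell (background 8.36% and 7.86%), with a median of 0.01. The one that fell was the second probe set of H2-DMa, an _x_at set at 6.65, 6.73 and 7.20 in control jejunum, 6.94, 6.35 and 6.24 in mutant jejunum, and 5.72, 6.07 and 5.70 in ileum (log2 difference -1.03, limma adjusted p = 0.00905). The brighter H2-DMa probe set gave 0.11 and was not called (0.822). Without control ileum 1, Cd74 rose in ileum by 0.60 (adjusted p = 0.0133). Mutant jejunum against ileum gave 0 calls in limma (background 2.65%), with a median of 0.55. An unadjusted limma p under 0.05 was reached by 8 of 22 (background 16.3%). H2-DMb2, H2-Oa, H2-Ob and H2-Eb2 were dim, with differences from -0.31 to 0.48 in the mutant, none called.

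H2-Ea, the alpha chain of H2-E, was near background on 1 array. Its brighter probe set stood at 9.03, 8.69 and 8.90 in control jejunum, 9.93, 9.38 and 4.72 in mutant jejunum, and 8.00, 9.41 and 9.11 in ileum. The dimmer one stood at 8.67, 8.45 and 8.59, then 9.42, 9.09 and 5.47, then 8.62, 9.18 and 9.23. Mutant jejunum 3 had deposited intensities of 11 and 29 on these probe sets, while it was not set apart for H2-Eb1 (11.72) or Cd74 (12.53). Some inbred strains are known to carry an H2-Ea allele without a transcript; the part of mouse background here was not tested. The resulting mutant differences of -0.87 and -0.58 have SEs of 1.03 and 0.78.

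**Figure D4:**
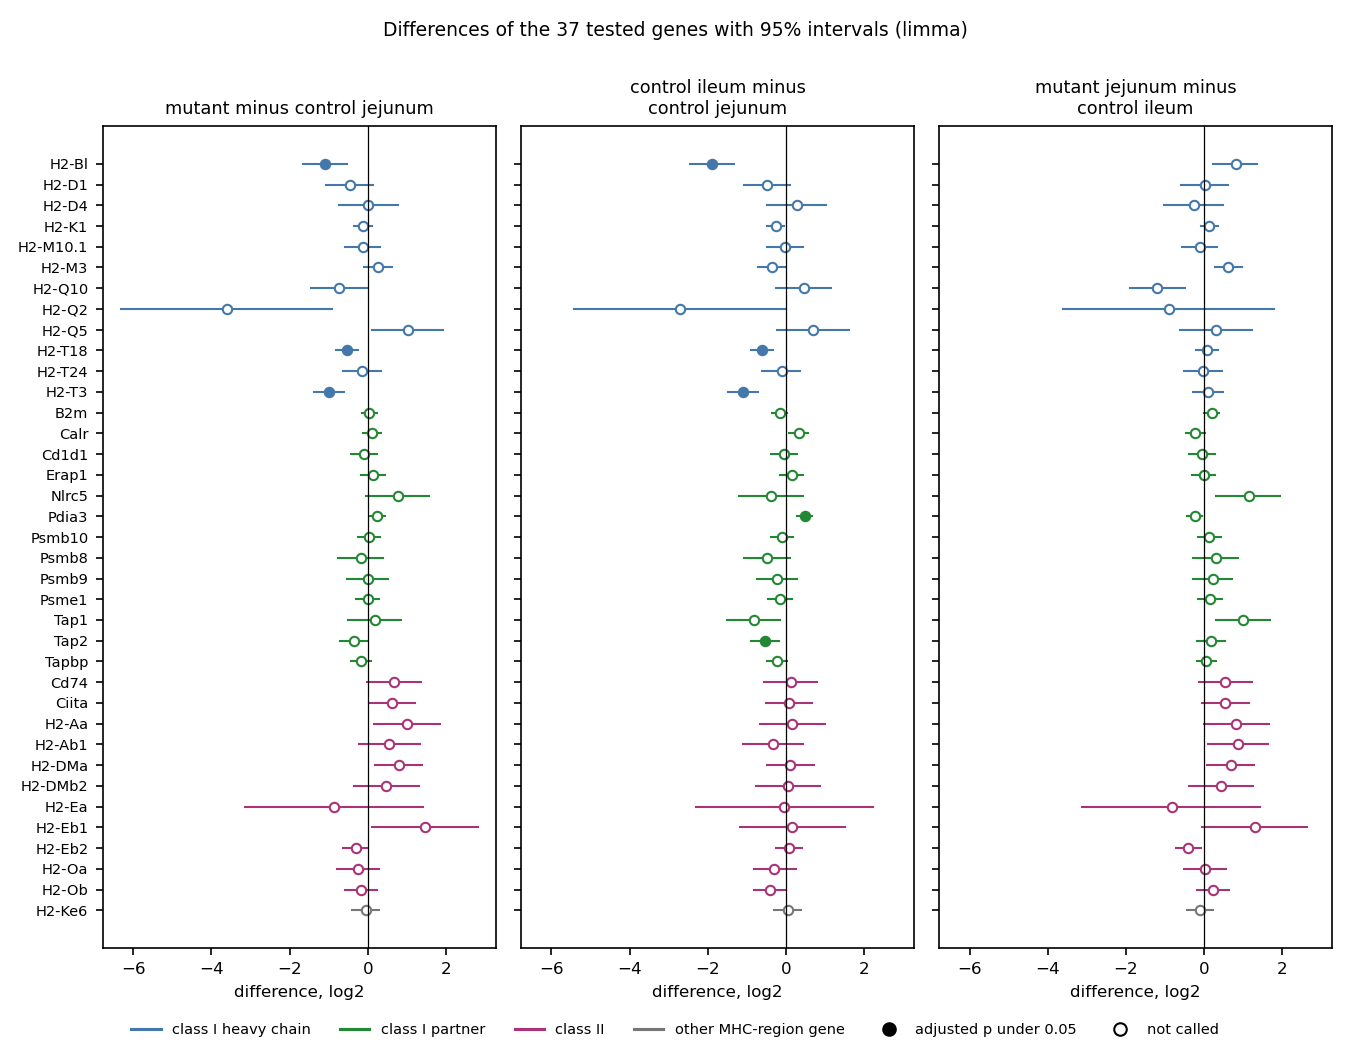
Log2 differences with 95% intervals from limma for the 3 comparisons, 1 probe set for each of the 37 tested genes, filled where the adjusted p is under 0.05. H2-T3, H2-T18 and H2-Bl are filled and below 0 in the mutant and in ileum, and in the mutant the class II intervals are wide and unfilled.

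Promoter sequences were compared because class I and class II genes are known to share control elements, among them the Y box bound by NF-Y. RefSeq windows of GRCm38.p6, from 250 bases before to 50 after the start, were found for 26 of the 38 genes. The 4 windows shown belong to the gene with the lowest adjusted p in the mutant (H2-T3), a classical heavy chain, and a pair of class II chains. They lie at chr17:36190102-36190401 (minus strand), chr17:35262844-35263143 (plus), chr17:34287774-34288073 (minus) and chr17:34305617-34305916 (plus), and are written 5′ to 3′ along the gene. Capitals mark matches, on either strand, to a Y box (CTGATTGG), a kappaB core (GGGGANTCC), an interferon-stimulated response element (TTTCNNTTT) or a GATA motif (GATAA).
H2-T3: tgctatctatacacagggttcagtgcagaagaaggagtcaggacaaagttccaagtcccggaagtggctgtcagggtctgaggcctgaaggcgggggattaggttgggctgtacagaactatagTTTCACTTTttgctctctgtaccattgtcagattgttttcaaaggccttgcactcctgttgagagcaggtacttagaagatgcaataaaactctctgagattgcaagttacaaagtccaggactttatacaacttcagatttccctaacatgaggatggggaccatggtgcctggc
H2-D1: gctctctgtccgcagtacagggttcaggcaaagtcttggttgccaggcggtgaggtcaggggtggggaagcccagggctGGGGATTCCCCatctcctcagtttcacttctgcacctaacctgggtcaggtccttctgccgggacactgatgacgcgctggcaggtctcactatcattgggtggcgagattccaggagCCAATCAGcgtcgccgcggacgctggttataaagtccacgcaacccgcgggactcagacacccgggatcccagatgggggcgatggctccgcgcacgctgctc
H2-Aa: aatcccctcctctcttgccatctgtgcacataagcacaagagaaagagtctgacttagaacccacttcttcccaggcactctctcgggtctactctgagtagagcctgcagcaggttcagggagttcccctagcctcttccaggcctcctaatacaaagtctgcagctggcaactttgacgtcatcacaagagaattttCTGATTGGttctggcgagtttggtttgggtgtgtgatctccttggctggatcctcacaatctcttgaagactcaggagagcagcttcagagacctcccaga
H2-Eb1: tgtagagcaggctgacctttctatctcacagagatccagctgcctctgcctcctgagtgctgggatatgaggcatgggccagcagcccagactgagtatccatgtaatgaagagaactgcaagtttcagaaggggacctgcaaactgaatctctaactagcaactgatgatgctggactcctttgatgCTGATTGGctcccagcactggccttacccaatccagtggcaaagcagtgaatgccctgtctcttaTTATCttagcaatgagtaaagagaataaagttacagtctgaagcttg

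A Y box was found in 4 of 8 heavy-chain genes with a window (H2-D1, H2-K1, H2-M10.1 and H2-M9), all on the reverse strand. It was also found in 4 of 7 class II genes with a window (H2-Aa, H2-Eb1, H2-Eb2 and H2-Oa), all forward. Of 32851 windows in the genome 4.10% held one. Member counts are per gene over any of its windows, and H2-K1, H2-M9 and H2-DMa have more than 1. The shares over all windows are per window, so the units differ. The Y box of Psmb9 and Tap1 is the same match, as their windows overlap. The kappaB letters were in 3 of 8 heavy-chain genes (H2-D1, H2-K1 and H2-Q10), 0 of 10 partner genes and 0 of 7 class II genes, and in 1.19% of all windows. In H2-D1 a forward and a reverse match overlap. GATA letters were in 2 of 8 heavy-chain genes (H2-M9 and H2-Q2), 1 of 10 partner genes (Tapbp) and 4 of 7 class II genes, against 25.4% of all windows. Response element letters were found in H2-T3, in B2m, Erap1 and Psme1, and in H2-DMa and H2-Oa, and in 10.6% of all windows. The H2-D1 window holds tttcacttc, which misses this pattern by 1 letter and is not marked. A window without a match may therefore still hold a related sequence. The response element letters and those of the kappaB core are shortened forms, taken up after longer ones had been searched. The longer response element was not in the H2-T3, H2-DMa or H2-Oa window. These matches describe letters only.

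Other genes of the pathway had few calls in the mutant, where 3.56% of all probe sets were called and 16.9% had an unadjusted p under 0.05. Of 28 tested interferon-induced genes 1 rose (3.57%, near the share over all probe sets), Ido1, a tryptophan-degrading enzyme, which stood at 9.88, 9.73 and 9.72 in control jejunum and 10.51, 10.49 and 10.82 in mutant jejunum (0.83, limma adjusted p = 0.0172). Of 13 interferon signalling genes 1 fell, Ifnar2, a subunit of the type I interferon receptor, at 7.92, 7.53 and 7.95 against 7.14, 6.99 and 6.97 (fell by 0.77, limma adjusted p = 0.0249). It also fell in ileum by 1.20 (5.80e-04). In the mutant 0 of 12 other class I processing genes, 0 of 10 other class II processing genes, 0 of 9 MHC promoter factors and 0 of 8 co-stimulation genes were called by limma, with 1, 3, 0 and 1 at an unadjusted p under 0.05. In ileum, where 16.2% of all probe sets were called, Canx, a chaperone of new heavy chains, rose by 0.48 (limma adjusted p = 0.00839), and Ifi30, a lysosomal thiol reductase, fell by 0.44 (0.0119), as did Marchf8, a ubiquitin ligase of class II, by 0.77 (0.00936). In the mutant Ifi30 gave -0.39 (0.0564) and Marchf8 -0.66 (0.0528), both without overlap and uncalled.

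Markers of the cells that carry MHC molecules were set beside these results. In the mutant 0 of 10 T cell, 0 of 7 B cell, 0 of 5 plasma cell and 0 of 16 macrophage and dendritic cell genes were called by limma, with 2, 0, 0 and 0 at an unadjusted p under 0.05 (background 16.9%). Of the T cell genes 9 of 10 differences were positive, and Cd8b1 (0.90, limma adjusted p = 0.0636) and Cd5 (0.82, 0.141) did not overlap. Epithelial genes rose in 3 of 12 (background 1.74%), led by the keratin Krt18 (0.84, limma adjusted p = 0.00271). The summed intensity of the epithelial list ran from 61669 to 63688 in control jejunum and 67904 to 73302 in the mutant, and that of the macrophage and dendritic cell list from 5496 to 5797 and 4317 to 7752. B cell genes summed to 201 to 361 and 181 to 235. Among defining markers, Ms4a1 (at most 5.66), Zbtb46 (at most 5.79) and Flt3 (at most 5.90) were near the filter threshold of 4.95, and Ms4a1 lay below it on the 3 mutant arrays at 4.46, 4.70 and 4.73. Control ileum 1 was the lowest array for the mean of the averaged class II genes. It also had the lowest mean level of the B cell (4.97), T cell (6.44), macrophage and dendritic cell (6.72) and interferon-induced (7.71) lists. The part of these cells in the MHC values was not tested.

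In ileum, where 7.86% of all probe sets fell and 8.36% rose, 4 of 10 T cell genes fell, Itgae (by 1.40, limma adjusted p = 0.00214), Gzma (by 1.26, 0.0199), Cd3d (by 0.87, 0.0385) and Cd3g (by 0.83, 0.0316). Their list summed to 1602 to 4333 in ileum, 5923 to 7977 in control jejunum and 6606 to 10409 in the mutant. Of 16 macrophage and dendritic cell genes 2 fell in ileum, Itgax among them (by 1.17, limma adjusted p = 0.00214). Of 7 B cell genes 2 fell in ileum, Cd79a (by 0.71, 0.0361) and Cd22 (by 0.91, 0.0333), and of 5 plasma cell genes 2 fell, Jchain (by 0.65, 0.0177) and Tnfrsf17 (by 1.25, 0.0118), all limma adjusted p. Smooth muscle genes rose in 6 of 8 and epithelial genes in 7 of 12. These shifts accompany the lower heavy chains of ileum, and their part in that result was not tested.

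**Figure D5:**
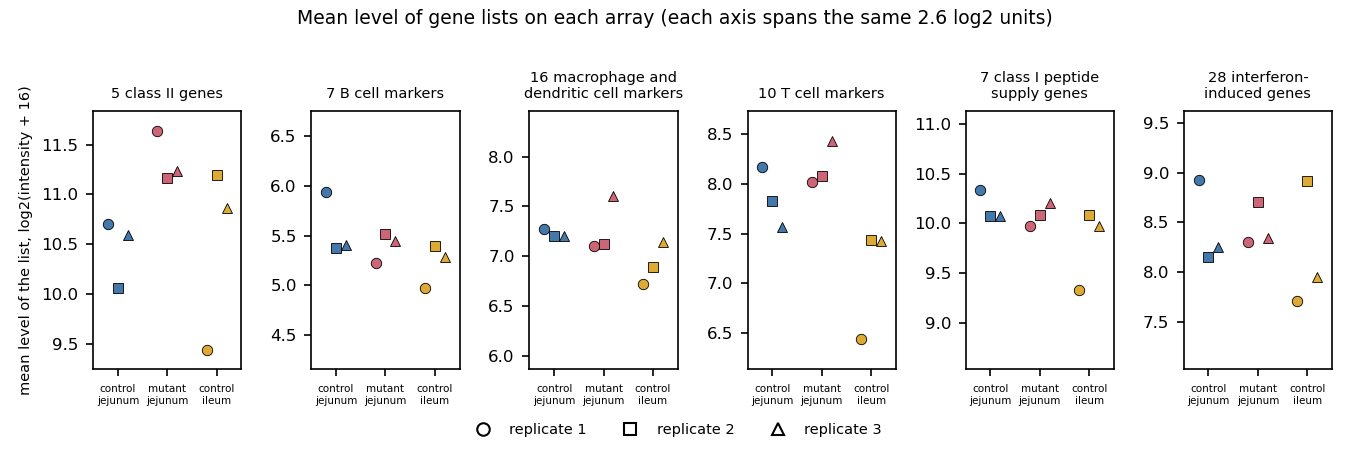
Mean normalized log2 level, on each array by group, of the 5 class II genes averaged above, B cell, macrophage and dendritic cell and T cell markers, 7 class I peptide supply genes (Psmb8, Psmb9, Psmb10, Psme1, Tap1, Tap2 and Tapbp) and 28 interferon-induced genes. Points are mice and each axis spans the same length. T cell means run from 6.44 to 7.44 in ileum and from 7.57 to 8.17 in control jejunum, and control ileum 1 is the lowest point of every list shown.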

How the data were processed

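RNA was measured on 9 Affymetrix Mouse 430 2.0 arrays, 3 mice per group by the sample titles. The authors deposited 1 linear intensity per probe set and array, made with GCOS per the submitters' processing notes; for its settings, not given in the sources used here, nothing was assumed. From the deposited intensity, 64 control probe sets of 45101 were left out, log2(intensity + 16) was computed and arrays were quantile-normalized, so a shift of all transcripts cannot be seen. Probe sets were tested if at least 3 arrays exceeded the 40th percentile (4.95), by limma 3.58.1 (R 4.3.3; lmFit over all 9 arrays, eBayes with trend, two-sided, Benjamini-Hochberg). No exact test was run, since 3 against 3 arrays can reach no p under 0.10. Symbols come from the array annotation (34945 probe sets with 1 symbol, 932 with several, 9160 with none). The probe set with the highest mean stands for a gene.

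The members and lists were chosen with earlier results of these data known. Values per array are given for genes with a call and for B2m, H2-K1, H2-D1, Cd74, H2-Aa, H2-Ab1, H2-Eb1, Ciita, Tap1, Psmb8 and Psmb9. H2-Q2, H2-Ea and the differing H2-D1 and H2-K1 probe sets were added after their values were seen. The lists are T cells, B cells, plasma cells, macrophages and dendritic cells, epithelium, stroma and vessels (0 of 12 called in the mutant, 1 rose and 2 fell in ileum), smooth muscle (0 of 8 called in the mutant), interferon signalling and induced genes, other class I and class II processing, MHC promoter factors and co-stimulation. Alternatives were scaling, pseudocount, filter, variance model, array weights, samples in the fit, the replicate block and leaving out each array. Nothing in the sample titles pairs mice by replicate number, and the main fit did not pair them. The fit was tested on simulated data.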

Additional observations from a re-analysis of the deposited data

How the results depend on the processing

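Of class I pathway probe sets, 4 were called between mutant and control jejunum, against 0 with no scaling, 1 with median-centred arrays, 2 with no filter and 2 with no intensity trend, and 0 to 4 without 1 array. Between ileum and jejunum 9 were called, 26 with no scaling and 7 to 10 without 1 array, and between mutant and ileum 0, with 24, 1 and 3 under no scaling, median centring and array weights, and 0 to 1 without 1 array. Of class II probe sets, 0 were called in the mutant, 2 in the fit of both jejunal groups alone and 0 to 4 without 1 array. In ileum 1 was called, 3 with no scaling and 1 to 2 without 1 array. Against ileum 0 were called, 12 with no scaling and 0 in each fit without 1 array. Of all 29621 probe sets tested with no scaling, 659 were called in the mutant, 10632 in ileum and 8497 between mutant and ileum. With no scaling the sign turned for Psmb9 in the mutant (0.06), for H2-Eb1, Cd74 and H2-Aa (each -0.38), Ciita (-0.29) and Pdia3 (-0.06) in ileum, and for Pdia3 between mutant and ileum (0.38). With median centring it turned for H2-K1 (0.02) and Psmb9 (0.10) in the mutant, for H2-Eb1 (-0.02), Cd74 (-0.03) and H2-Aa (-0.03) in ileum, and for Pdia3 between mutant and ileum (0.07). Trimmed mean scaling turned Psmb9 in the mutant (0.02) and B2m in ileum (0.03), and array weights turned H2-D1 between mutant and ileum (-0.00). The causes were not tested. Leaving out 1 array, signs turned for Tap1 (-0.07 to 0.36), B2m (-0.02 to 0.14) and Psmb9 (-0.10 to 0.13) in the mutant. In ileum they turned for H2-Eb1 (-0.34 to 1.03), Ciita (-0.19 to 0.28), Cd74 (-0.15 to 0.60), H2-Aa (-0.19 to 0.66), H2-Ab1 (-0.67 to 0.14) and Psmb9 (-0.39 to 0.10). Between mutant and ileum they turned for Psmb8 (-0.09 to 0.50), H2-D1 (-0.33 to 0.30), H2-T3 (-0.03 to 0.24) and Psmb9 (-0.10 to 0.39). Of these differences, that of Cd74 in ileum was called in 1 fit without an array. Same-numbered arrays showed no clear pairing: deviations from group means correlated at -0.07 to 0.17 in 9 such pairs and -0.19 to 0.19 in 18 others. Such deviations sum to 0 within each group of 3 arrays, so these values cannot exclude a shared batch. With the replicate block 4, 9 and 0 class I and 0, 1 and 0 class II probe sets were called in the mutant, in ileum and between both, with Tap2 lost and the brightest Calr probe set gained in ileum (0.33, adjusted p = 0.0411). Few arrays and dim probe sets limit these values.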
